A study of Mus musculus with 12 samples.

Results

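The genes described here are 42 genes of the motile cilium, chosen by symbol for their known place in multiciliated cells: regulators, dynein arms, radial spokes and central pair, rulers and links between the doublets, proteins of the doublet lumen, and proteins of the tip and other parts. Of the 42, 26 had a probe whose RefSeq transcript carried the member's symbol. In 25 of these the signal was well above background, by the scanner software's own flag, on all 3 arrays of 1 or more groups, and these 25 were tested among 21853 items (13646 named genes, and probes that could not be named). Spag6, a central pair protein, had a named probe that was well above background on 5 of the 12 arrays and was not tested. The 16 members without a named probe on this array design were Mcidas, Dnah1, Dnah6, Dnah7b, Dnah9, Dnah12, Dnai2, Rsph4a, Lrrc23, Spag17, Ccdc40, Cfap43, Cfap44, Cfap45, Ak7 and Ak8, and they are not described further except where a promoter is counted.

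RNA was taken from the lungs of female FVB/N mice (strain given as FVB/NJ) that were 7 weeks old at the start, and each sample was read on a one-colour Agilent array, with 3 arrays in each of 4 groups. The PBS mice received the saline buffer weekly for 16 weeks. The LPS mice received 5 ug per mouse of lipopolysaccharide, the endotoxin of Gram-negative bacteria, into the nose weekly for 16 weeks. The NNK mice received 3 mg per mouse of NNK, a nitrosamine carcinogen of tobacco smoke, by intraperitoneal injection during the first 4 weeks, and the LPS/NNK mice received both agents. Lungs were collected 1 week after the last treatment. Only 4 weeks of dosing are listed for the NNK mice, against 16 for the others, which leaves their age at collection unclear. If it differed, age and treatment cannot be told apart in comparisons with the NNK mice, or in the interaction. No carrier for the NNK injections is given in the labels, which state the NNK schedule both as biweekly and as semi-weekly, and do not say whether tumour was in the sample. They also do not say that each array is 1 mouse, so p-values measure the spread between these arrays. The question behind the 4 groups, from the series title, is what chronic inflammation from LPS does beside the carcinogen.

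Motile cilia beat on the multiciliated cells of the conducting airways and carry mucus out of the lung. Each is built on an axoneme of microtubule doublets around a central pair, in which dynein arms slide the doublets, radial spokes and the central pair tune the sliding, and nexin links hold the doublets together. Foxj1 and the RFX factors switch on most of these genes in the differentiating cell. In bulk lung, fewer multiciliated cells and less of an RNA per cell cannot be told apart.

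RFX factors bind the X-box, in which GTTGCC is one arm. The promoters below, from RefSeq on GRCm38.p6, are shown because they hold these letters and belong to members called in at least 1 comparison, chosen after their values were seen. In the 250 bases before a gene start, GTTGCC was found on either strand (as GTTGCC or GGCAAC) in 16 of the 37 members with a promoter in the table, or 43.2%, against 11.8% of 27025 genes. A gene with several starts was counted once if any start held the letters, and by start the shares were 17 of 43 (39.5%) for members against 10.4% of 32851. A longer X-box arm, GTTGCCATG, which contains the first motif, was found in 1 of 37 members (Sntn) against 0.733% of genes. The forkhead letters TGTTTAC, of the kind Foxj1 binds, were found in 3 of 37 members (Ak7, Cfap43 and Sntn) against 3.54% of genes. Foxj1, Rsph1, Rsph4a, Tcte1 and Tppp3 are not in the promoter table. Each line gives the 120 bases that end just before the gene start, 5′ to 3′ on the gene's strand, with GTTGCC or GGCAAC in capitals. Hydin lies at chr8:110266857-110266976 (plus strand), Drc1 at chr5:30281273-30281392 (plus), Rfx2 at chr17:56831009-56831128 (minus), Spag16 at chr1:69826850-69826969 (plus), Tekt2 at chr4:126325689-126325808 (minus, the first of its 3 starts) and Sntn at chr14:13670756-13670875 (plus).
Hydin: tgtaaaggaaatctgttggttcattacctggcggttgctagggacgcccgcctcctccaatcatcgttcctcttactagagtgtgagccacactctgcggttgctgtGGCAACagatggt
Drc1: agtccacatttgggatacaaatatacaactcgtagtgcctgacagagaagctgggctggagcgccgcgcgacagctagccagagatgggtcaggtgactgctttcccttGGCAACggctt
Rfx2: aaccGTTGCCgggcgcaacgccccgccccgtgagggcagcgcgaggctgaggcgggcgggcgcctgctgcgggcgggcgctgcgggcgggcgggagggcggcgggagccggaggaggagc
Spag16: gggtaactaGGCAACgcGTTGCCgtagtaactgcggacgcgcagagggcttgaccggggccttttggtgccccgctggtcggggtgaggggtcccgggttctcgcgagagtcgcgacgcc
Tekt2: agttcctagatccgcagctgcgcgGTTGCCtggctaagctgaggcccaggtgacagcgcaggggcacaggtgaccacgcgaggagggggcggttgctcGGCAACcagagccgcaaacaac
Sntn: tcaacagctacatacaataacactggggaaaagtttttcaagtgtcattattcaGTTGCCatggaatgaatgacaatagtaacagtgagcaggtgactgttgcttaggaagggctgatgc
The letters began 13 bases before the start in Hydin and 11 in Drc1, both on the strand opposite the gene. Spag16 holds one copy on each strand, at 111 and 103 bases before the start, and Tekt2 at 96 and 22 bases. A match describes letters, and binding or any part of it in the changes below was not tested.

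A level here is the log2 signal of a gene's brightest probe minus the array's 75th percentile, so that 0 is the signal of the array's upper quartile. Levels can be compared between arrays for 1 gene and not between genes. Before this scaling the 75th percentile was 699 to 984 intensity units on the PBS arrays and 183 to 510 on the treated ones, and 70.2% to 73.1% of spots against 55.6% to 67.5% were well above background. Arrays of a group correlated at 0.965 to 0.99 over all items. On PBS arrays 1 and 2 the Y-linked genes Ddx3y, Eif2s3y, Kdm5d and Uty were well above background and Xist was not, the reverse of PBS array 3 and of all 9 treated arrays, although the labels call all mice female. The tissue label was checked against lung markers, whose mean level was 4.42 to 5.20 over all arrays for alveolar type 1, 4.89 to 6.17 for alveolar type 2 and 3.69 to 4.33 for endothelial cells. PBS array 3 was the highest of its group for 21 of the 25 members, by a median of 0.66 over the mean of the other PBS arrays, against 6718 of 21853 items and a median of -0.06.

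**Figure D1:**
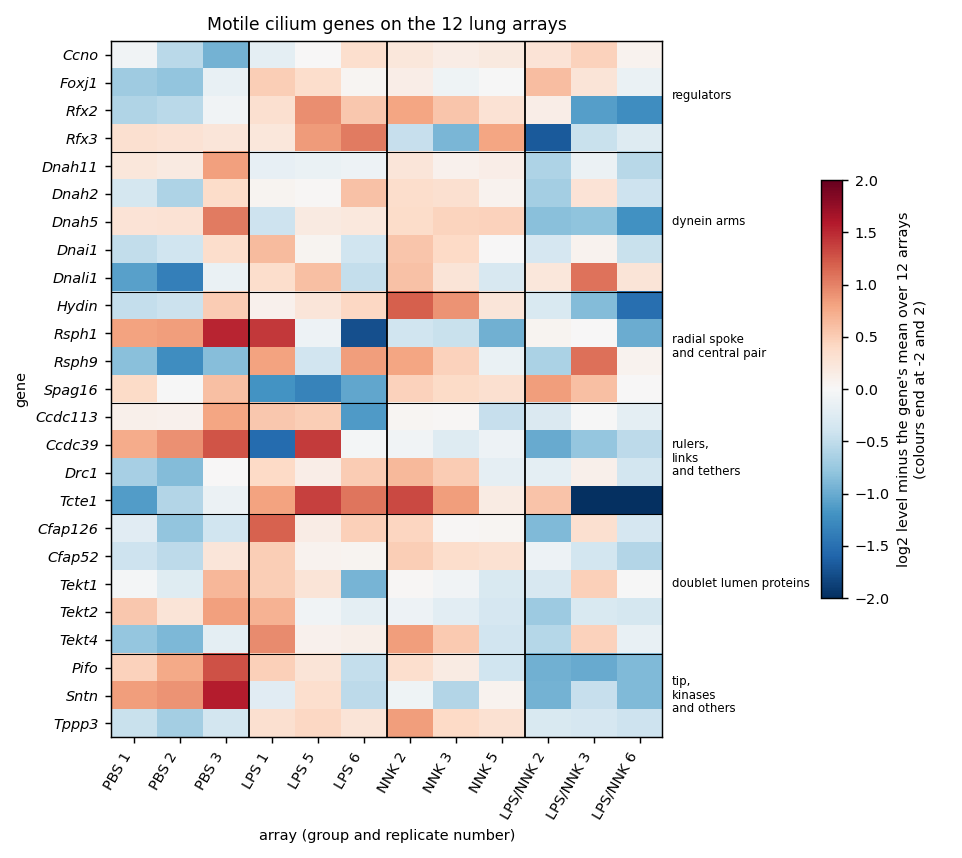
Level of the 25 tested genes (rows, by role) on the 12 arrays (columns), coloured as log2 difference from the gene's mean over the 12 arrays. PBS array 3 is above PBS arrays 1 and 2 for most genes, and rows differ in whether the treated arrays lie above or below the PBS arrays.

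The family did not move as one against PBS. After LPS, 9 of the 25 members rose and 2 fell, with a median change of 0.42 on the log2 scale, where 26.1% of all items rose and 30% fell (56% called in either direction) and the median of all items was -0.06. After NNK, 8 rose and 4 fell (median 0.50), against 27.8% higher and 23.7% lower of all items (51.5% in all, median 0.04). After both agents, 4 rose and 6 fell (median -0.12), against 27.9% and 27.1% of all items (55.1% in all, median -0.04). The share of members called was below the share of all items in each of these comparisons. Groups did not overlap for 12, 14 and 13 members in turn, against 62.5%, 67.6% and 61.9% of items. These comparisons share the PBS arrays. Of the 19 members well above background on all 12 arrays, 8 rose and 0 fell with LPS, 8 rose and 2 fell with NNK, and 4 rose and 4 fell with both. A fit on only the probes above background on all 12 arrays gave 8 and 1, 9 and 2, and 4 and 4. It called 57.1%, 54.8% and 55.5% of its items in turn, with all-item medians of 0.18, 0.22 and 0.19. At an unadjusted p of 0.05 in limma, 10 members were higher and 4 lower after LPS. The share of all items at this threshold was not counted, here or for the unadjusted counts below. After LPS it is at least the 56% called at adjusted p, so these counts do not set the members apart.

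Adding LPS to NNK gave the one comparison in which called members lay on 1 side. In LPS/NNK against NNK, 0 members rose and 6 fell, with a median of -0.52, where 7.92% of all items rose, 9.34% fell and the median was -0.06. At an unadjusted p of 0.05, limma gave 0 members higher and 8 lower. The sign was negative in 19 of 25 members, against 11714 of 21853 items. In LPS/NNK against LPS, 1 member rose and 2 fell (median -0.50, with 21 of 25 negative), against 2.85% and 1.26% of items and a median of 0.11 (9378 of 21853 negative). The interaction, which is the difference LPS/NNK minus NNK less the difference LPS minus PBS, sets LPS beside the buffer in one term and, since the labels list no buffer for the NNK mice, beside no nasal dose in the other. Its call was negative in 8 members and positive in 1 (median -0.83, with 18 of 25 negative), against 18.6% and 20.1% of items (38.7% in all) and a median of 0.01 (10862 of 21853 negative). The 9 of 25 called are near the share of all items. Of the 19 members well above background on all 12 arrays, 7 interactions were negative and 0 positive. The fit on only such probes gave 8 and 0 for these members, with a median of -0.83. It called 42.9% of its items, whose median was also below 0, at -0.20. The 8 and 11 members whose arrays did not overlap in LPS/NNK against NNK and against LPS compare with 35.9% and 20.9% of items.

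Counts moved with the scaling and the background correction. After LPS, 9 rose and 2 fell in the main scaling, 4 and 2 after quantile normalization, and 12 and 2 after centring arrays on their median. The split turned to 3 higher and 7 lower when the 75th percentile was taken over probes above background on all arrays. After NNK the same 3 alternatives gave 6 and 2, 11 and 1, and 2 and 5. After both agents they gave 2 and 8, 4 and 4, and 1 and 9. In LPS/NNK against NNK they gave 0 and 5, 0 and 5, and 0 and 6. Under these 3 alternatives 56.7% to 57.2% of all items were called after LPS and 51.8% to 53.5% after NNK. After both agents 55.1% to 58.4% were called, and in LPS/NNK against NNK 16.5% to 19%. Normexp background correction left 1 higher and 0 lower after LPS, 4 and 1 after NNK, 1 and 2 after both, and no call in LPS/NNK against NNK, where 6 members had been lower and the members' median was now -0.25 against -0.18 for all items and 1.62% of items were called. Against PBS, normexp called 18.9% of all items after LPS, 36.7% after NNK and 29.5% after both. The member calls kept under normexp were Tcte1 after LPS, Rfx2 and Tekt2 after NNK, and Dnah5, Dnali1 and Tekt2 after both agents. In LPS/NNK against NNK its limma fit gave 0 members higher and 2 lower at an unadjusted p of 0.05. No interaction was called (0 higher and 4 lower unadjusted), where 0.233% of items were called. Centring on the median moved the all-item median after LPS from -0.06 to 0.34, and the 75th percentile over commonly detected probes moved it to -0.34.

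**Figure D2:**
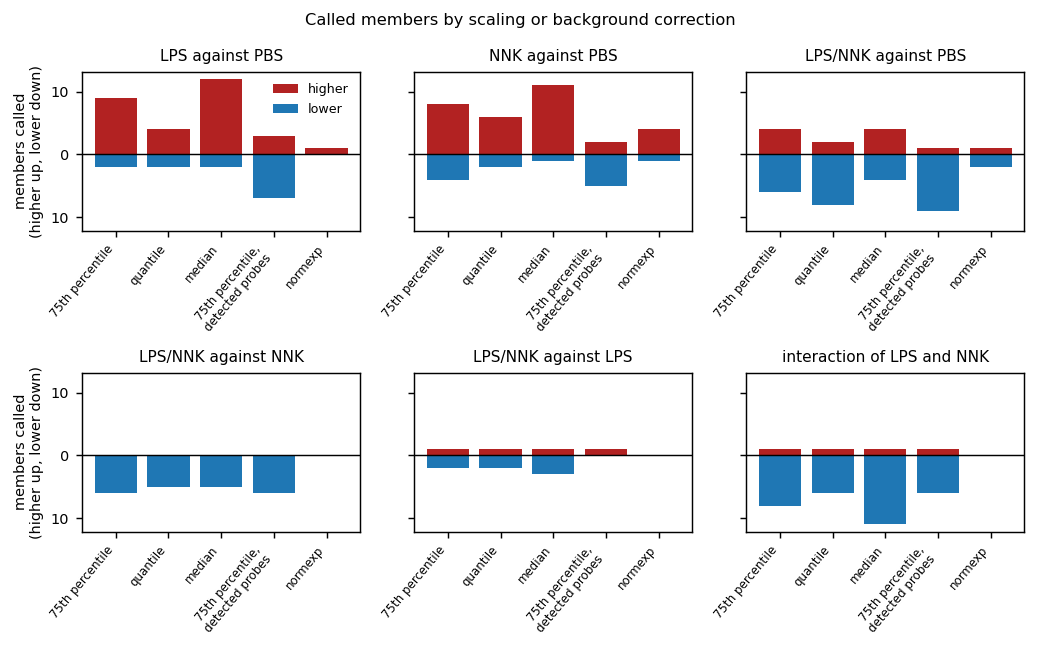
Number of members called higher (bars up) and lower (bars down) in each comparison under the main scaling and 4 alternatives. Bars against PBS change their split, from 9 higher and 2 lower to 3 higher and 7 lower after LPS, while LPS/NNK against NNK has no bar upwards and loses all its calls only under normexp.

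Single arrays also moved the counts. The share of all items called is given beside each count, because it fell too. The 11 calls after LPS became 7 without PBS array 1 and 3 without PBS array 2. All items called went from 56% to 48% and 46.7% in turn. The 12 calls after NNK became 5 without PBS array 1, 3 without PBS array 2, 3 without NNK array 2 and 2 without NNK array 3. All items called went from 51.5% to between 39.6% and 41.7% in these fits. Without both PBS arrays that carry Y-linked signal, only PBS array 3 is left, the highest of its group for 21 of the 25 members. Against that 1 array the members' medians were -0.14 after LPS, -0.03 after NNK and -0.64 after both agents. The medians of all items were -0.05, 0.05 and -0.006. A lost rise and a high PBS array 3 cannot be told apart here, and effect sizes alone are given for this setting. The 6 calls of LPS/NNK against NNK became 2 without any one of NNK array 2, NNK array 3, LPS/NNK array 3 or LPS/NNK array 6. All items called went from 17.3% to between 7.21% and 9.27% in these fits. The 3 calls against LPS became 1 without LPS array 1, LPS array 5, LPS/NNK array 3 or LPS/NNK array 6, and 7 without LPS/NNK array 2. All items called went from 4.11% to 1.35%, 1.64%, 0.357%, 0.508% and 22.1% in turn. The 9 interactions became 5 without PBS array 2 or NNK array 2. All items with a called interaction went from 38.7% to 31.1% and 28.5% in turn. With PBS array 3 as the only PBS array, the members' median interaction was -0.33, against -0.83 in the main fit.

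Among the regulators, 4 of 5 were tested, and those that changed against PBS rose. Changes below are differences of group means on the log2 scale ± SE from the limma fit, with 3 arrays per group and p adjusted over all items. Foxj1, the forkhead factor that directs motile cilium formation, stood at 1.39, 1.31 and 1.94 on PBS arrays 1, 2 and 3, at 2.59, 2.44 and 2.13 on LPS arrays 1, 5 and 6, at 2.23, 2.01 and 2.08 on NNK arrays 2, 3 and 5, and at 2.71, 2.35 and 1.96 on LPS/NNK arrays 2, 3 and 6. Every treated array lay above every PBS array, with LPS/NNK array 6 just above PBS array 3. Foxj1 was higher by 0.84 ± 0.26 after LPS (1.79-fold, adjusted p = 0.015) and by 0.79 after both agents (adjusted p = 0.0204), while the difference after NNK was 0.56 ± 0.26 (adjusted p = 0.0876). Both calls were lost without PBS array 1 (adjusted p = 0.0554 and 0.0702) or 2 (0.0638 and 0.0831), that after both agents also without LPS/NNK array 2 (0.0676) or 3 (0.0513), and both under quantile normalization.

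Rfx2, an RFX factor of ciliogenesis, turned with the combination. Its levels were -2.19, -2.12 and -1.66 after PBS, -1.27, -0.66 and -1.05 after LPS, -0.80, -1.03 and -1.29 after NNK, and -1.46, -2.69 and -2.83 after LPS/NNK, in the same order of arrays. Each single agent put all 3 arrays above PBS, and LPS/NNK arrays 3 and 6 lay below every other array. Rfx2 rose by 0.99 ± 0.34 with LPS (adjusted p = 0.0242) and by 0.95 ± 0.34 with NNK (adjusted p = 0.0331), and LPS/NNK was lower than NNK by -1.28 ± 0.34 (adjusted p = 0.0222) and than LPS by -1.33 ± 0.34 (adjusted p = 0.0469). The interaction was -2.28 ± 0.48 (adjusted p = 0.00434) and was kept without any single array. It was -1.94 with PBS array 3 as the only PBS array. The LPS call was lost without PBS array 1 (adjusted p = 0.0779), PBS array 2 (0.0713) or LPS array 5 (0.0912), and the NNK call without PBS array 1 (0.0999), PBS array 2 (0.091), NNK array 2 (0.108) or NNK array 3 (0.0781). The call against NNK was lost without NNK array 2 (0.0907), NNK array 3 (0.0718), LPS/NNK array 3 (0.0935) or LPS/NNK array 6 (0.0932), and that against LPS without any of 5 arrays, all but LPS/NNK array 2 (0.0721 to 0.189).

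Ccno, a cyclin-like protein needed to multiply centrioles, was at 0.60, 0.12 and -0.27 after PBS, 0.47, 0.68 and 1.01 after LPS, 0.90, 0.81 and 0.86 after NNK, and 0.95, 1.13 and 0.74 after LPS/NNK. NNK and LPS/NNK arrays lay above all PBS arrays, and LPS array 1 fell within the PBS range. It rose by 0.71 ± 0.26 with NNK (adjusted p = 0.0349) and by 0.79 with both agents (adjusted p = 0.0194). The NNK call was lost without any one array except PBS array 1 (adjusted p = 0.0715 to 0.152), and the call with both agents without PBS array 2 (0.0536), PBS array 3 (0.0972) or LPS/NNK array 3 (0.0719). Rfx3, a second RFX factor, was well above background on the PBS arrays only, at -5.65, -5.70 and -5.74, and its treated arrays gave no call and no fold.

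Of the dynein arm genes among the members, 5 of 11 were tested. The outer arm heavy chains Dnah5 and Dnah11 fell with the combination while an inner arm chain rose. Dnah5, the outer arm heavy chain whose loss stills the cilium, was at 0.048, 0.067 and 0.81 after PBS, -0.65, -0.041 and -0.012 after LPS, 0.15, 0.22 and 0.23 after NNK, and -1.06, -1.03 and -1.43 after LPS/NNK. The LPS/NNK arrays were the lowest 3 of the 12, with no overlap with any group. Dnah5 fell by 1.48 ± 0.27 on the log2 scale against PBS (adjusted p = 0.000545) and by 1.37 ± 0.27 against NNK (adjusted p = 0.00505). The call against PBS was kept under every alternative tried, and that against NNK under every one but normexp (-0.93, adjusted p = 0.177). Its 2 other probes were dimmer and did not move alike, at -2.20 and 0.26 against PBS and at -1.18 and -0.62 against NNK.

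Dnah11, the other outer arm heavy chain among the tested members, ranged from -1.77 to -1.13 after PBS and from -2.57 to -2.08 after LPS/NNK. It fell by 0.84 ± 0.24 with both agents (adjusted p = 0.00903), a call lost without PBS array 3 (adjusted p = 0.0508), with median centring (-0.55, adjusted p = 0.079) and under normexp (-0.099, adjusted p = 0.832). Dnali1, an inner arm light intermediate chain, was at -0.40, -0.68 and 0.55 after PBS, 1.04, 1.28 and 0.22 after LPS, 1.27, 0.94 and 0.37 after NNK, and 0.91, 1.78 and 0.94 after LPS/NNK. PBS array 3 lay above 1 array each of LPS and NNK, and below all of LPS/NNK. Dnali1 rose by 1.02 ± 0.39 with LPS (adjusted p = 0.0393), by 1.03 ± 0.39 with NNK (adjusted p = 0.0403) and by 1.38 ± 0.39 with both (adjusted p = 0.00892). The last call stood without any single array, and the change was 0.66 with PBS array 3 as the only PBS array. The LPS call was lost without PBS array 1 (adjusted p = 0.112), PBS array 2 (0.154), LPS array 1 (0.101) or LPS array 5 (0.143), and the NNK call without PBS array 1 (0.114), PBS array 2 (0.155), NNK array 2 (0.145) or NNK array 3 (0.0979).

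The outer arm intermediate chain Dnai1 and the inner arm heavy chain Dnah2 had no call in any comparison. Dnai1 was at -0.44, -0.35 and 0.39 after PBS, 0.68, 0.10 and -0.35 after LPS, 0.59, 0.45 and 0.048 after NNK, and -0.29, 0.12 and -0.40 after LPS/NNK. Dnah2 was at 0.36, 0.10 and 1.08 after PBS, 0.77, 0.73 and 1.31 after LPS, 1.08, 1.03 and 0.79 after NNK, and 0.032, 1.0 and 0.30 after LPS/NNK. For both genes every treated group overlapped PBS. A second Dnah2 probe gave -0.27 after LPS where the brighter one gave 0.42.

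**Figure D3:**
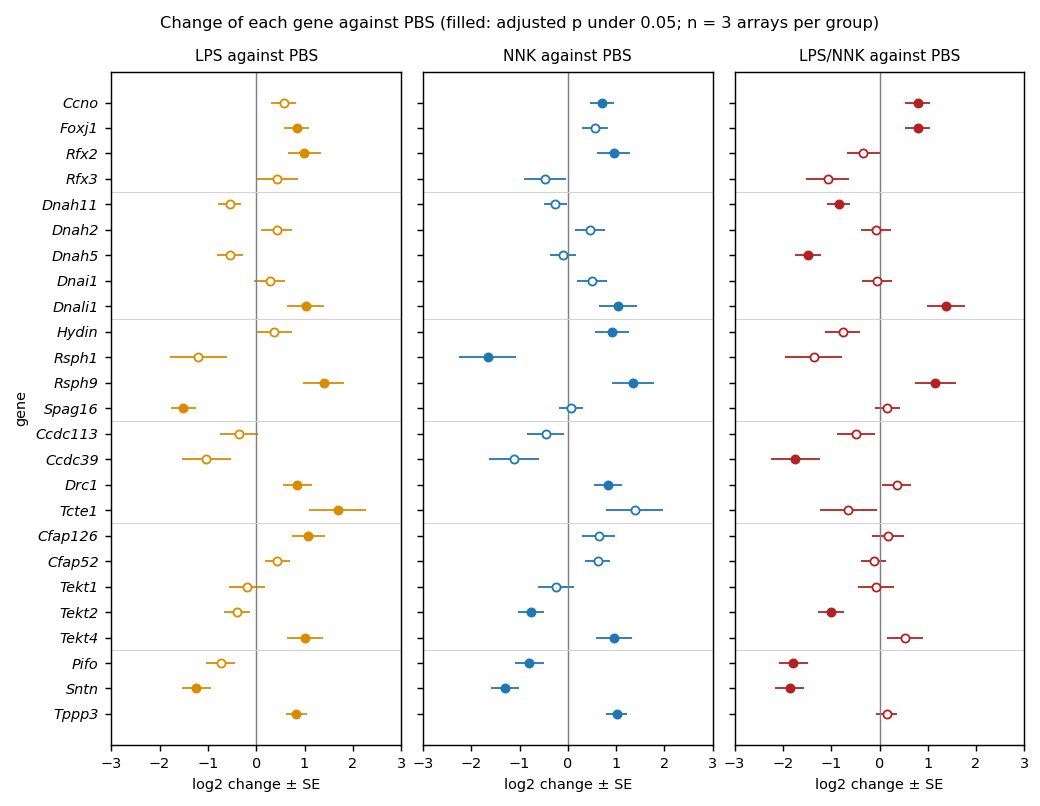
Change of each of the 25 genes against PBS on the log2 scale ± SE, in 3 panels for LPS, NNK and both agents (filled points: adjusted p under 0.05, 3 arrays per group). Dnah5, Sntn and Pifo lie on the lower side with both agents, and Dnali1, Rsph9, Foxj1 and Ccno on the higher side, of which Sntn turns sign under normexp (0.031).

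In the radial spokes and central pair, 4 of 8 genes were tested, and the spoke head proteins went opposite ways. Rsph9 was at 1.24, 0.84 and 1.22 after PBS, 2.88, 1.69 and 2.91 after LPS, 2.86, 2.53 and 1.95 after NNK, and 1.44, 3.18 and 2.14 after LPS/NNK. All 9 treated arrays lay above all PBS arrays. Rsph9 rose by 1.39 ± 0.43 with LPS (adjusted p = 0.0145), by 1.35 ± 0.43 with NNK (adjusted p = 0.0193) and by 1.16 ± 0.43 with both (adjusted p = 0.0352). The LPS call was lost without PBS array 2 (adjusted p = 0.0524), LPS array 1 (0.0544) or LPS array 6 (0.0552), and the NNK call without PBS array 2 (0.0654), NNK array 2 (0.078) or NNK array 3 (0.0545). The call with both agents was lost without any one array but LPS/NNK array 2 (0.0555 to 0.177).

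Rsph1, of the same spoke head, was at -1.38, -1.35 and -0.65 after PBS, -0.76, -2.28 and -3.93 after LPS, -2.58, -2.62 and -3.14 after NNK, and -2.12, -2.17 and -3.17 after LPS/NNK. NNK and LPS/NNK arrays lay below all PBS arrays, and the LPS arrays spread across both. Rsph1 fell by 1.66 ± 0.59 with NNK (adjusted p = 0.031), a call lost without any one of its 6 arrays (adjusted p = 0.0505 to 0.098). LPS/NNK against PBS gave -1.36 ± 0.59 (adjusted p = 0.0645).

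Hydin, which builds a projection of the central pair, fell when LPS was added to NNK. Its levels were -1.33, -1.28 and -0.34 after PBS, -0.77, -0.61 and -0.44 after LPS, 0.35, 0.048 and -0.60 after NNK, and -1.15, -1.72 and -2.37 after LPS/NNK. LPS/NNK lay wholly below NNK and LPS and overlapped PBS. Hydin was lower in LPS/NNK than in NNK by -1.68 ± 0.36 (adjusted p = 0.00804), kept without any single array and lost under normexp (-0.96, adjusted p = 0.214). It rose by 0.91 ± 0.36 with NNK (adjusted p = 0.0475) with PBS and NNK overlapping, a call lost without PBS array 1 (adjusted p = 0.157), PBS array 2 (0.147), NNK array 2 (0.172) or NNK array 3 (0.12). The interaction was -2.06 ± 0.51 (adjusted p = 0.00858).

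Spag16, a central pair protein, was at -4.74, -5.13 and -4.52 after PBS, -6.31, -6.46 and -6.15 after LPS, -4.66, -4.74 and -4.79 after NNK, and -4.28, -4.52 and -5.11 after LPS/NNK. The LPS arrays were the lowest 3 and none of them was well above background, against 3 PBS, 2 NNK and 1 LPS/NNK array. The fit called it lower with LPS than with PBS (adjusted p = 0.000413) and higher in LPS/NNK than in LPS (adjusted p = 0.00973). No size is given, because a signal not well above background gives only a bound, which was under 1-fold. This gene entered the test through the PBS arrays alone, the only group with all 3 arrays well above background, so that a difference from dimmer groups was built into its selection. The sign turned under normexp, to 0.47 after LPS (adjusted p = 0.466).

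Among rulers, links and tethers, 4 of 7 genes were tested. Drc1, a scaffold of the nexin-dynein regulatory complex, was at 1.96, 1.75 and 2.63 after PBS, 3.02, 2.76 and 3.13 after LPS, 3.27, 3.13 and 2.44 after NNK, and 2.43, 2.72 and 2.25 after LPS/NNK. LPS arrays lay above all PBS arrays, and NNK array 5 and LPS/NNK arrays 2 and 6 lay below PBS array 3. Drc1 rose by 0.85 ± 0.29 with LPS (adjusted p = 0.0246) and by 0.83 ± 0.29 with NNK (adjusted p = 0.0305). The LPS call was lost without PBS array 1 (adjusted p = 0.0774), PBS array 2 (0.106), LPS array 1 (0.0538) or LPS array 6 (0.065), and the NNK call without PBS array 1 (0.0922), PBS array 2 (0.125), NNK array 2 (0.121) or NNK array 3 (0.103).

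Tcte1, the DRC5 subunit of the same complex, was at -3.33, -2.78 and -2.32 after PBS, -1.39, -0.83 and -1.14 after LPS, -0.88, -1.36 and -2.04 after NNK, and -1.64, -4.28 and -4.46 after LPS/NNK. LPS/NNK arrays 3 and 6 were the lowest of the 12, LPS/NNK array 2 lay within the NNK range, and the probe was well above background on 1 of these 3 arrays. Tcte1 rose by 1.69 ± 0.59 with LPS (adjusted p = 0.0266), and LPS/NNK was lower than NNK by -2.03 ± 0.59 (adjusted p = 0.0322) and than LPS by -2.34 ± 0.59 (adjusted p = 0.045). Its interaction was fitted at -3.72 ± 0.84 (adjusted p = 0.00551) and stood without any single array, but the lowest LPS/NNK arrays were not well above background, so the size of this and of both differences from LPS/NNK is uncertain. The LPS call was lost without PBS array 1 (adjusted p = 0.0929), PBS array 2 (0.058), LPS array 5 (0.0813) or LPS array 6 (0.0563). The call against NNK was lost without NNK array 2 (0.123), NNK array 3 (0.091), LPS/NNK array 3 (0.134) or LPS/NNK array 6 (0.126), and that against LPS without any array but LPS/NNK array 2 (0.079 to 0.183).

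Ccdc39, which with Ccdc40 forms the ruler that spaces the inner arms, ranged from -2.61 to -2.09 after PBS and from -4.36 to -3.89 after LPS/NNK. It fell by 1.74 ± 0.51 with both agents (adjusted p = 0.011), a call that stood without any single array and turned sign under normexp (0.21, adjusted p = 0.738). The change was -2.03 with PBS array 3 as the only PBS array. It was well above background on 1 of the 3 LPS/NNK arrays. Ccdc113, a coiled-coil protein of the axoneme, had no call, at 0.41, 0.39 and 1.10 after PBS, 0.84, 0.80 and -0.82 after LPS, 0.35, 0.33 and -0.15 after NNK, and 0.027, 0.30 and 0.12 after LPS/NNK. Its LPS array 6 lay below all other arrays, and the NNK and LPS/NNK arrays all lay below the PBS arrays.

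In the doublet lumen, 5 of 6 genes were tested, and the tektins, filament proteins of the doublet wall, did not move alike. Tekt4 was at 1.04, 0.90 and 1.61 after PBS, 2.75, 1.90 and 1.92 after LPS, 2.64, 2.33 and 1.42 after NNK, and 1.24, 2.27 and 1.65 after LPS/NNK. The LPS arrays lay above all PBS arrays, and NNK and LPS/NNK overlapped PBS. Tekt4 rose by 1.01 ± 0.37 with LPS (adjusted p = 0.0343) and by 0.95 ± 0.37 with NNK (adjusted p = 0.0478). The LPS call was lost without PBS array 1 (adjusted p = 0.0919), PBS array 2 (0.111) or LPS array 1 (0.136), and the NNK call without PBS array 1 (0.12), PBS array 2 (0.143), NNK array 2 (0.186) or NNK array 3 (0.134).

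Tekt2 was at 1.26, 0.97 and 1.52 after PBS, 1.40, 0.64 and 0.51 after LPS, 0.61, 0.50 and 0.37 after NNK, and -0.013, 0.41 and 0.36 after LPS/NNK. NNK and LPS/NNK arrays lay below all PBS arrays, and LPS array 1 fell within the PBS range. Tekt2 fell by 0.76 ± 0.27 with NNK (adjusted p = 0.0323) and by 1.0 ± 0.27 with both agents (adjusted p = 0.00707). The NNK call was lost without any one array except PBS array 2 (adjusted p = 0.057 to 0.114), and the call with both agents stood without any single array. Both were lost when arrays were centred on their median (-0.55, adjusted p = 0.133, and -0.70, adjusted p = 0.0574). Tekt1 had no call, at 1.59, 1.38 and 2.29 after PBS, 2.12, 1.88 and 0.69 after LPS, 1.64, 1.56 and 1.32 after NNK, and 1.30, 2.11 and 1.62 after LPS/NNK, and every treated group overlapped PBS.

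Cfap126, also known as Flattop, was at 2.52, 1.96 and 2.34 after PBS, 3.93, 2.90 and 3.23 after LPS, 3.18, 2.76 and 2.79 after NNK, and 1.86, 3.06 and 2.41 after LPS/NNK. LPS and NNK arrays lay above all PBS arrays, and LPS/NNK array 2 lay below them. Cfap126 rose by 1.08 ± 0.34 with LPS (adjusted p = 0.0152), a call lost without PBS array 2 (adjusted p = 0.0639) or LPS array 1 (0.0674), and after NNK it differed by 0.64 ± 0.34 (adjusted p = 0.126). Cfap52, a protein inside the doublet, ranged over the 12 arrays from -0.16 to 0.92 and had no call between groups. Its interaction was called.

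Among tip, kinase and other genes, 3 of 5 were tested. Sntn, or sentan, a protein of the ciliary tip, was at -2.40, -2.34 and -1.68 after PBS, -3.47, -2.91 and -3.76 after LPS, -3.32, -3.83 and -3.17 after NNK, and -4.18, -3.70 and -4.13 after LPS/NNK. All 9 treated arrays lay below all PBS arrays. Sntn fell by 1.24 ± 0.30 with LPS (adjusted p = 0.00356), by 1.30 ± 0.30 with NNK (adjusted p = 0.00335) and by 1.86 ± 0.30 with both (adjusted p = 0.000219). No single array ended these calls. Under normexp the values were -0.25, 0.40 and 0.031, so the sign turned after NNK and after both.

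Pifo, the pitchfork protein known for its part in cilium disassembly, was at -1.33, -1.02 and -0.51 after PBS, -1.31, -1.52 and -2.26 after LPS, -1.45, -1.62 and -2.19 after NNK, and -2.75, -2.80 and -2.68 after LPS/NNK. The LPS/NNK arrays were the lowest 3 of the 12. Pifo fell by 0.80 ± 0.31 with NNK (adjusted p = 0.042) and by 1.79 ± 0.31 with both agents (adjusted p = 0.000342), and was lower in LPS/NNK than in NNK by -0.99 ± 0.31 (adjusted p = 0.0404). The call with both agents stood without any single array and was lost under normexp (-0.59, adjusted p = 0.19). The NNK call was lost without PBS array 2 (adjusted p = 0.0781), PBS array 3 (0.166), NNK array 3 (0.0707) or NNK array 5 (0.16), and the call against NNK without any array but NNK array 5 (0.0516 to 0.154).

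Tppp3, a tubulin-binding protein abundant in multiciliated cells, was at 4.00, 3.76 and 4.07 after PBS, 4.77, 4.85 and 4.70 after LPS, 5.27, 4.84 and 4.75 after NNK, and 4.14, 4.11 and 4.02 after LPS/NNK. LPS and NNK arrays lay above all PBS and LPS/NNK arrays, and the latter overlapped each other. Tppp3 rose by 0.83 ± 0.22 with LPS (adjusted p = 0.00617) and by 1.01 ± 0.22 with NNK (adjusted p = 0.0024), and LPS/NNK was lower than NNK by -0.86 ± 0.22 (adjusted p = 0.0181). The rises stood without any single array and were lost under quantile normalization (0.20, adjusted p = 0.477, and 0.39, adjusted p = 0.167) and normexp (0.73, adjusted p = 0.119, and 0.33, adjusted p = 0.421). The call against NNK was lost without NNK array 2 (adjusted p = 0.092), NNK array 3 (0.0552), LPS/NNK array 3 (0.0569) or LPS/NNK array 6 (0.0623).

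The effect of LPS differed with NNK in 9 of 25 members, where 38.7% of all items had a called interaction. The interaction was -3.72 in Tcte1, -2.28 in Rfx2, -2.06 in Hydin, -1.69 in Tppp3, -1.54 in Cfap126, -1.42 in Tekt4, -1.33 in Drc1 and -1.17 in Cfap52, and that of Spag16 was called positive with no measured size, its LPS arrays being at background. The first 8 are a regulator, both links of the regulatory complex that were called after LPS, a central pair protein, 3 doublet lumen proteins and a tubulin binder, so they come from 5 of the 6 roles. Tppp3 went from 0.83 with LPS alone to -0.86 with LPS on NNK (SE of the interaction 0.31, adjusted p = 0.00245), and Hydin from 0.37 to -1.68. Drc1 went from 0.85 to -0.48 (adjusted p = 0.0234), Cfap126 from 1.08 to -0.47 (adjusted p = 0.0221), Cfap52 from 0.43 to -0.74 (adjusted p = 0.0226) and Tekt4 from 1.01 to -0.41 (adjusted p = 0.0481). Over all 25 members, 18 had the lower value with NNK, which are the 18 negative interactions given above. Of the 25, 12 were positive with LPS alone and negative with LPS on NNK, a turn that was not counted over all items. The interactions of Tcte1, Rfx2, Hydin, Tppp3 and Spag16 stood without any single array. With PBS array 3 as the only PBS array, Hydin gave -1.41, Rfx2 -1.94 and Tcte1 -3.23, and Tppp3 and Spag16 kept their sign. The call of Cfap126 was lost without PBS array 2 (adjusted p = 0.0561) or NNK array 2 (0.0574), and that of Cfap52 without PBS array 1 (0.057), PBS array 2 (0.0606), NNK array 2 (0.0541) or LPS/NNK array 6 (0.0581). Drc1 was lost without PBS array 1 (0.0548), PBS array 2 (0.0622), NNK array 2 (0.0636), NNK array 3 (0.0602) or LPS/NNK array 6 (0.0561), and Tekt4 without PBS array 1 or 2, LPS array 1 or 5, NNK array 2 or 3, or LPS/NNK array 2 or 6 (0.0534 to 0.121). Normexp ended all 9 calls and turned Spag16 to -0.72.

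**Figure D4:**
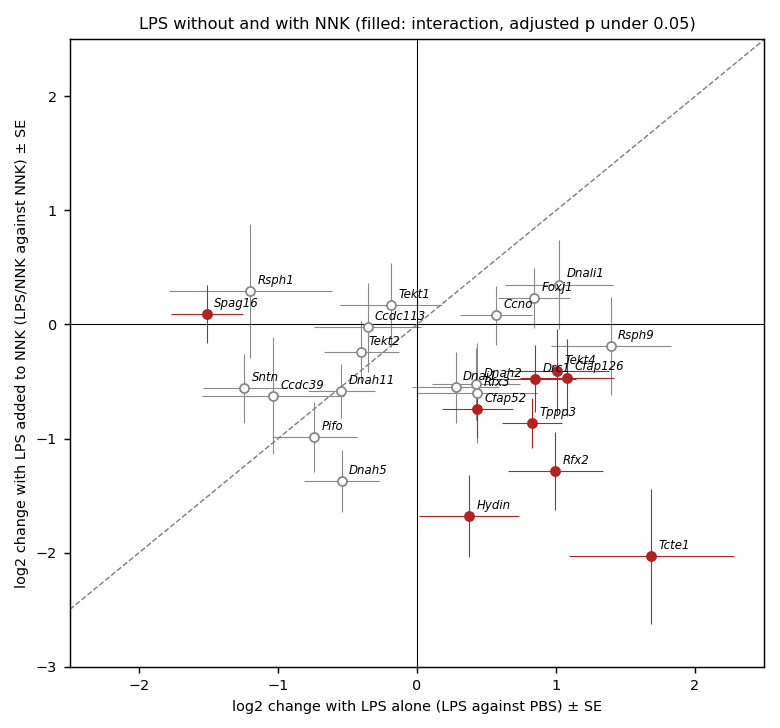
Log2 change ± SE with LPS alone (x axis) and with LPS added to NNK (y axis) for the 25 genes, each the difference of 3 arrays from 3 other arrays (filled: interaction called). The lower right corner holds 12 genes that were positive with LPS alone and negative with LPS on NNK, and the genes with a called interaction lie below the diagonal except Spag16. The same corner was not counted over all items.

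**Figure D5:**
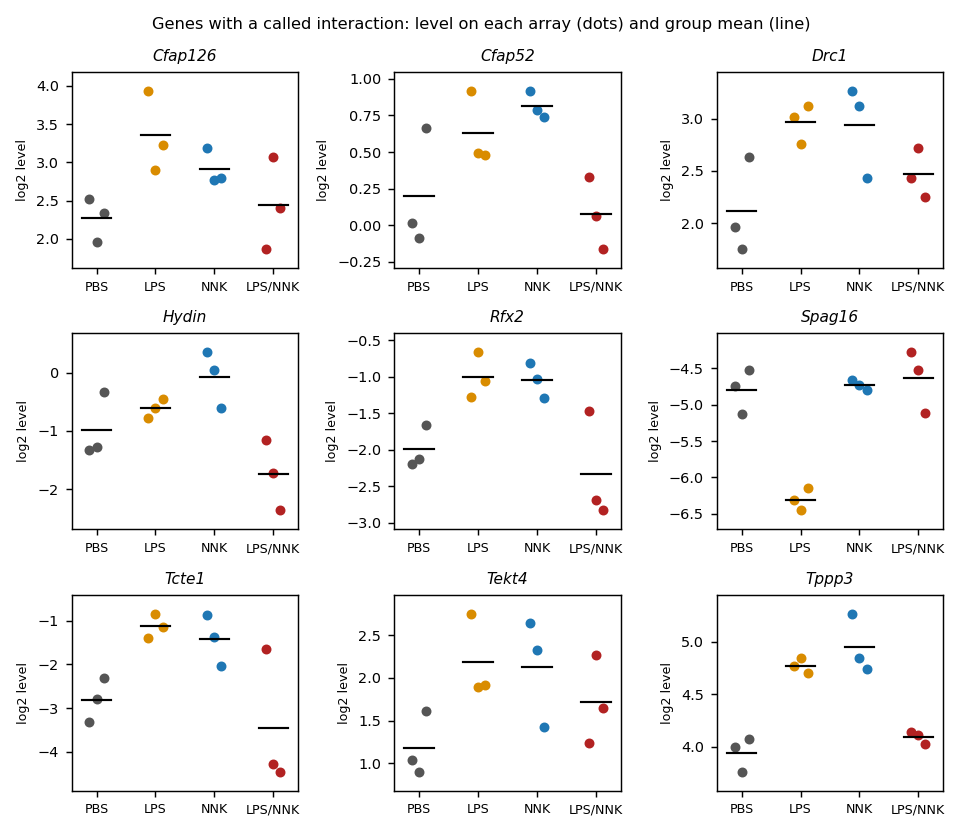
Log2 level on each array (dots) and group mean (line) for the 9 genes with a called interaction. Tppp3 is above PBS with each single agent and overlaps PBS with both, and Tcte1 and Rfx2 have LPS/NNK array 2 apart from LPS/NNK arrays 3 and 6.

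Some slides of the arrays held 2 groups, which gives differences within a slide. Position on the slide followed the group, at 1 for PBS, 2 for LPS and NNK and 4 for LPS/NNK. Each difference within a slide is therefore also one of position, and the 2 cannot be told apart. The same holds for every group comparison and the interaction given above, since position followed the group on every array. On slide 6, LPS/NNK array 2 minus NNK array 3 had a median of -0.70 over the members, with 21 of 25 negative, and on slide 7, LPS/NNK array 3 minus NNK array 5 had a median of 0.07, with 11 of 25 negative. The family as a whole was therefore lower with LPS on NNK on 1 of these 2 slides. The called members were chosen on these same arrays. For all of them but Tcte1 the 2 groups did not overlap, so a negative sign on each slide was fixed in advance. On slides 6 and 7 in turn, Dnah5 differed by -1.28 and -1.26, Hydin by -1.20 and -1.12, and Rfx2 by -0.43 and -1.40. Tcte1 differed by -0.28 and -2.25, Tppp3 by -0.70 and -0.64, and Pifo by -1.13 and -0.61. On slide 5, NNK array 2 minus PBS array 3 had a median of 0.20, with 13 of 25 positive. On slide 8, LPS/NNK array 6 minus PBS array 1 had a median of -0.29, with 16 of 25 negative. The LPS arrays sat on slides of their own, so LPS against PBS has no difference within a slide. By the start of the slide barcode, the LPS arrays and PBS array 2 were of slide series 1, and all other arrays of series 2. LPS/NNK against LPS is therefore also a difference of slide series. PBS array 2 was scanned on a different day from all other arrays.

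Other genes of the same machinery were counted from lists beyond the 42. Of 19 tested genes of the dynein arms and their assembly, 6 rose and 1 fell with LPS, 4 and 1 with NNK, and 4 and 2 with both. Over the scalings the LPS split turned to 3 higher and 4 lower with the 75th percentile of commonly detected probes. Of their interactions 1 was positive and 3 negative. Among the assembly factors, which build dynein in the cytoplasm, Dnaaf1 was at -2.08 ± 0.54 (adjusted p = 0.0103), Zmynd10 at -1.45 ± 0.43 (adjusted p = 0.018), Ruvbl2 at -1.18 ± 0.34 (adjusted p = 0.0167) and Dnaaf2 at 0.93 ± 0.30 (adjusted p = 0.0267). With the 75th percentile of commonly detected probes 3 were positive and 2 negative, and under normexp none was called (0 and 2 unadjusted). Cfap300 was lower in LPS/NNK than in NNK by -1.10 ± 0.33 (adjusted p = 0.0364). Of 35 other axoneme genes, 7 rose and 7 fell with LPS, 0 rose and 2 fell when LPS was added to NNK (0 and 7 at an unadjusted p of 0.05 in limma), and 1 interaction was positive and 9 negative. With the 75th percentile of commonly detected probes the interaction split was 3 and 4, and no interaction was called under normexp (0 and 6 unadjusted). The 2 that fell were Ttll6, a tubulin polyglutamylase (-1.32 ± 0.26, adjusted p = 0.005), and Tubb4b, a tubulin of the axoneme (-1.42 ± 0.37, adjusted p = 0.0197). Of 16 further regulators of multiciliation, 3 rose and 6 fell with LPS (4 and 2 with median centring, 2 and 0 under normexp), including Trp73, a driver of the multiciliated fate (1.30 ± 0.23, adjusted p = 0.000524), and E2f5, which works with Multicilin (-1.49 ± 0.24, adjusted p = 0.000258). In this list 5 interactions were positive and 2 negative, with a median of 0.76, unlike the members.

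Intraflagellar transport and BBSome genes, which every cilium uses, had another sign. Of 34 tested, 2 rose and 19 fell with LPS, 2 and 15 with NNK, and 2 and 14 with both, with medians of -0.75, -0.54 and -0.48. Median centring gave 6 and 6 with LPS, 2 and 9 with NNK and 5 and 5 with both, and normexp gave 1 and 2, 2 and 1, and 2 and 1, so the lower side was not kept in every scaling. Arl6 (-1.25 ± 0.23, adjusted p = 0.000608) and Bbs5 (-1.41 ± 0.28, adjusted p = 0.00109), both of the BBSome pathway, fell with LPS, while Ift140 rose by 1.44 ± 0.25 (adjusted p = 0.000513). Their interaction was positive in 11 and negative in 2, where that of the 25 members was positive in 1 and negative in 8. It was 0 and 0 under normexp, with 3 higher and 2 lower at an unadjusted p of 0.05 in limma.

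Markers of other lung cells moved between the same groups, and their part in the members' results was not tested. Of 14 leukocyte markers, 10 rose with LPS and 6 rose when LPS was added to NNK, and their mean level was 0.18 to 0.27 after PBS, 1.13 to 1.65 after LPS, 0.47 to 0.56 after NNK and 1.55 to 1.71 after LPS/NNK. Of 12 markers of club cells, the secretory neighbours of multiciliated cells, 0 rose and 2 fell when LPS was added to NNK (0 and 3 at an unadjusted p of 0.05 in limma), namely Scgb1a1 (-1.41 ± 0.29, adjusted p = 0.00692) and Aldh1a1 (-0.87 ± 0.21, adjusted p = 0.0139). Their mean level was 4.37 to 4.60 after PBS, 4.87 to 5.01 after LPS, 4.46 to 4.78 after NNK and 3.88 to 4.57 after LPS/NNK. Of 7 markers of the large airway wall, such as cartilage and smooth muscle, 5 rose with LPS (0 under normexp, with 0 lower) and 3 with NNK, and their mean level was 0.20 to 0.69, 0.95 to 1.64, 1.18 to 1.77 and 0.73 to 1.33 in the same order. In LPS/NNK against NNK, Des, of smooth muscle, was lower by -1.61 ± 0.36 (adjusted p = 0.01) and Col2a1, of cartilage, higher by 1.13 ± 0.32 (adjusted p = 0.0279). Goblet and gland markers had 7 of 11 higher and 0 lower with LPS (fewer with PBS array 3 as the only PBS array), 2 and 0 with NNK, and 3 and 0 with both. On LPS/NNK array 6 they lay a median of -2.93 from the other arrays of the group. Their median was 1.11 above the other PBS arrays on PBS array 3, the array on which the members were also high. Basal cell markers had 6 of 9 higher and 0 lower with LPS, 6 and 0 with NNK, and 7 and 1 with both. Alveolar type 2 markers had 6 of 10 higher and 1 lower, 8 and 0, and 6 and 1 in the same order, and quantile normalization gave 1 and 2, 3 and 1, and 2 and 2. Called interactions were mostly negative in some other lists too: 0 positive and 5 negative for club cell, 1 and 4 for alveolar type 2, 0 and 3 for large airway wall, 0 and 3 for neuroendocrine and tuft, 0 and 2 for goblet and 0 and 1 for basal markers. Leukocyte markers had 3 and 2. Quantile normalization gave 2 and 3 for club cell markers, and normexp ended the interaction calls of all these lists. Alveolar type 1 markers had 1 and 2. More were positive for endothelial markers (2 and 1), the further multiciliation regulators (5 and 2) and intraflagellar transport and BBSome genes (11 and 2). Over all items 20.1% were positive and 18.6% negative.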

How the data were processed

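Lung RNA of 12 samples was labelled with Cy3 and read on Agilent arrays (design 14868), per the labels' protocols. The deposited intensity is the processed signal of Agilent Feature Extraction, version 10.7.3.1 per the file headers (10.7 per the submitters' processing notes, which also name Partek). The deposited table of log2 values differed from the values used here by at most 0.000177. Of 45018 spots per array, control spots and 39 to 99 outlier spots were left out, and 0 were saturated. Spots of a probe were averaged, giving 41137 probes (37 had outlier spots only), and 24355 (59.2%) were named through RefSeq accessions. Each array's 75th percentile was subtracted from log2 signal. Probes well above background on every array of a group (28331) were kept, and the brightest probe stood for a gene. limma 3.58.1 in R 4.3.3 (lmFit and eBayes, 12 arrays, 8 residual and 5.5 prior degrees of freedom) tested 5 group comparisons and the interaction, with Benjamini-Hochberg adjustment over 21853 items and a call at 0.05. An exact test of 3 arrays against 3 cannot go below 0.1. The script was tested on simulated data. The number of arrays limits precision.

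Members and gene lists were chosen with earlier results of these data known. Values on every array are given for the 3 brightest members of each role and the 4 called members with the smallest p of each comparison, together with the names behind counts up to 5 and up to 4 called genes of another list. Normexp used median spot and background signals (offset 50) for want of a mean signal column. Other alternatives were other scalings, filters and probe rules, the replicate number, slide and slide series as blocks, and leaving out arrays. Sequences are from RefSeq, GRCm38.p6.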

Additional observations from a re-analysis of the deposited data

Results flagged for a closer look

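In 9 members the effect of LPS on NNK mice differed from its effect on mice without NNK, by the interaction term of the limma fit over all items. These are 9 of 25 tested, and 38.7% of all items had a called interaction, so the count does not set the members apart. The difference, LPS effect with NNK minus without, was -3.72 for Tcte1 (SE 0.84, adjusted p = 0.00551), -2.28 for Rfx2 (SE 0.48, adjusted p = 0.00434), -2.06 for Hydin (SE 0.51, adjusted p = 0.00858) and -1.69 for Tppp3 (SE 0.31, adjusted p = 0.00245). It was -1.54 for Cfap126, -1.42 for Tekt4, -1.33 for Drc1 and -1.17 for Cfap52. The fitted value for Spag16 was 1.60, but its probe was not well above background on any LPS array and entered the test through the PBS arrays alone, so the size is not measured. The size for Tcte1 rests on LPS/NNK arrays of which 1 of 3 was well above background.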

How the results depend on the processing

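Over the 51 member calls and 28 alternative settings, 1123 values could be compared, of which 820 kept their direction and call, 298 kept the direction and lost the call, and 5 turned sign. The deposited table, outlier spots kept, the mean of a gene's probes and an intensity trend ended none of the 51 calls. The last 2 added calls: with the mean of probes NNK against PBS had 13, and with the trend NNK against PBS had 13, LPS/NNK against NNK 7 and the interaction 10. Under normexp the calls after LPS, NNK and both agents (each against PBS), after LPS/NNK set against each single agent (NNK, then LPS) and in the interaction numbered 1, 5, 3, 0, 0 and 0, in place of 11, 12, 10, 6, 3 and 9, and the 5 turned values were Spag16 after LPS (0.47), Sntn after NNK (0.40), Ccdc39 (0.21) and Sntn (0.031) after both agents, and the interaction of Spag16 (-0.72). The cause was not tested. In what follows the share of all items called is in brackets. LPS against PBS had 6 calls after quantile normalization (56.7%) and 6 with the slide series as a fixed effect (35.5%). NNK against PBS had 7 with the 75th percentile over commonly detected probes (53.5%), and 2 with slide (30.4%) and 3 with slide series (41.2%) as a fixed effect. LPS/NNK against NNK had 2 with slide as a fixed effect (11.9%). LPS/NNK against LPS had 1 each with that percentile (3.77%), no filter (1.03%), or probes above background on all arrays (5.1%). It had 0 each from only the arrays compared (0.174%) or with slide series (0.00458%). The totals above include the setting without the PBS arrays with Y-linked signal, which leaves PBS array 3 alone, so its counts are not given. That setting was planned with earlier results known. Leaving out 1 array gave 3 to 11, 2 to 10, 7 to 12, 2 to 6, 1 to 7 and 5 to 11 calls in the order above. Deviations of same-numbered arrays of different groups correlated at r from -0.147 to 0.408 (9 pairs, median 0.021, 3 over 0.1). Those of other pairs ranged from -0.411 to 0.339 (45 pairs, median -0.028, 18 over 0.1). The ranges overlap, and so few pairs cannot exclude a pairing by number. With the replicate number as a block the counts were 12, 10, 11, 4, 5 and 10. Slide as a fixed effect could not be fitted for LPS, whose slides held 1 array each. Dim members (Spag16, Rfx3, Ccdc39, Tcte1) lie near background on some arrays, which limits their precision.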
